A study of Mus musculus with 6 samples.

Results

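The genes described here are the mouse genes named Zfp and a number, most of which encode zinc finger proteins, in CD11b+ Gr-1+ myeloid cells sorted from gliomas. They were chosen by symbol and by count: a symbol of Zfp, a number and at most 1 further letter, leaving out Zfp36, with a count of at least 30 in at least 3 of the 6 libraries. Of 23107 genes in the table, 360 symbols had this form and 282 met the count rule, and these 282 are the members. RNA-seq was made from 3 libraries of cells from tumours with wild-type IDH1 (wtIDH1) and 3 from tumours with mutant IDH1 (mIDH1), all from C57BL/6 mice. In both groups leukocytes were enriched on Percoll and cells bearing CD11b and Gr-1, an epitope shared by neutrophils and many monocytes, were sorted by flow cytometry. The labels name no treatment and give neither the other alleles of the tumours, the age of the mice, nor whether replicates came from separate mice.

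Zinc finger proteins of the C2H2 kind hold a zinc ion between a pair of cysteines and a pair of histidines, and tandem fingers read DNA sequence. The most numerous class in mammals adds a KRAB domain, which binds Trim28 and through it brings Setdb1, HP1 proteins and DNA methylation to chromatin, above all at transposable elements. Other Zfp proteins carry a BTB or SCAN domain, activate promoters, or act on RNA, ribosomes or the spindle.

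The name was checked against the translated coding sequence of each gene. At least 1 C2H2 pattern was found in 273 of the 282 members, with a median of 10 patterns per protein and a maximum of 37, in Zfp142. No pattern was found in 9, which were Zfp259, Zfp330, Zfp503, Zfp703, Zfp783, Zfp839, Zfp862, Zfp935 and Zfp939, and 3 of these (Zfp783, Zfp862 and Zfp939) are not annotated as protein coding. Zfp259 is the older symbol of Zpr1, which is no C2H2 protein. A profile of the KRAB domain matched 151 members, with a median of 12 C2H2 patterns, and did not match 131, with a median of 7. A missing match does not show that the domain is absent. "Transcription factor" is therefore a label by name and does not describe every member: Zfp598, Zfp622 and Zfp106, for instance, are known for work on ribosomes or RNA.

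Between mIDH1 and wtIDH1 cells 14 of 282 members passed the threshold, 2 of them up and 12 down in mIDH1, which is 4.96% of members against 8.17% of all genes tested (2.78% higher and 5.39% lower). The 12 that fell were Zfp236, Zfp238, Zfp248, Zfp263, Zfp295, Zfp335, Zfp513, Zfp608, Zfp609, Zfp710, Zfp800 and Zfp821, and those that rose were Zfp644 and Zfp655. Of these, Zfp248 alone had a KRAB match. The threshold was an adjusted p under 0.05 in edgeR's quasi-likelihood test with Benjamini-Hochberg adjustment over 12950 genes, of which 1058 passed. In bulk RNA, fewer cells of a type and less RNA per cell cannot be told apart.

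The promoters of the members that passed were searched for common promoter motifs. RefSeq (GRCm38.p6) windows from 250 bases before to 50 after the most 5′ start were found for 233 members and for 10 of the 14 that passed. The stretches shown are the 150 bases before the start of both members that rose and of the 2 that fell whose window held a cAMP response element. Capitals mark motifs on either strand: a CCAAT box, a GC box (letters GGGCGG), an E box (CACGTG) or a cAMP response element (TGACGTCA). The positions are chr2:164911751-164911900 (minus strand) for Zfp335, chr16:97962623-97962772 (minus) for Zfp295, chr5:106696831-106696980 (minus) for Zfp644 and chr5:145231592-145231741 (plus) for Zfp655.
Zfp335: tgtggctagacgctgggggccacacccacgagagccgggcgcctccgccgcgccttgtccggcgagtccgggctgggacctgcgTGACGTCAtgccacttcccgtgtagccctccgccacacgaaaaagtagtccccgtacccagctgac
Zfp295: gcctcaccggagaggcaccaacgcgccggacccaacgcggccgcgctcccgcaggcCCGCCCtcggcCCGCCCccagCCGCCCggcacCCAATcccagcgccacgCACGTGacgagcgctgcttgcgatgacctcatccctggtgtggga
Zfp644: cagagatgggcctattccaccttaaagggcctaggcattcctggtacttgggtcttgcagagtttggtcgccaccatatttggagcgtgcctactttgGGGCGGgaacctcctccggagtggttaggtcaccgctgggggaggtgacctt
Zfp655: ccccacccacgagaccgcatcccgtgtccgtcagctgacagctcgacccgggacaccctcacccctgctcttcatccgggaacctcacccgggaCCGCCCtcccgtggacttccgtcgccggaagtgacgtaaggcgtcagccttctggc
The Zfp644 stretch held 5 CpG dinucleotides, against 15 in Zfp655, 16 in Zfp335 and 20 in Zfp295. It precedes the RefSeq start but lies wholly inside the GENCODE span of the gene, whose 5′ end is at 106697287. The other stretches lie at the 5′ ends of their GENCODE spans, so the Zfp644 count is not of a like region. Of these stretches, only that of Zfp295 had the E box and the CCAAT box, with 3 GC boxes, and its cAMP response element lay outside the printed stretch.

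Over the 300-base windows, the GC box was in 116 member promoters (49.8%), against 63.1% for the 9177 promoters of tested genes and 35.9% of all promoters. Members with a KRAB match had it in 40.6% and the others in 62.0%. The CCAAT box ran the other way, in 72 of 133 KRAB (54.1%) and 42 of 100 other windows, against 39.2% for tested genes. Median CpG counts were 11 per window in KRAB members, 21 in the others and 20 in tested genes. The 8 lower members with a window held a GC box in 5, a CCAAT box in 5 and a cAMP response element in 2. That element was in 4.29% of member and 3.17% of tested promoters. An interferon response element was in 0 of these 8, in 5 members (2.15%) and in 3.2% of tested promoters. These are matches of letters, not sites of binding.

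The libraries held between 19728204 and 35093267 counts, and 3 counts, which a count of 0 still allows, corresponded to 0.0855 to 0.152 counts-per-million (CPM). That bound covers counting error only. The 4 gate genes (Itgam, Ptprc, Ly6c1, Ly6c2) summed to 3108 to 3462 CPM in wtIDH1 cells and 3084 to 3589 CPM in mIDH1, nearly all of it Itgam and Ptprc. Of these 4 genes 1 was lower, Ly6c2, which encodes part of the Gr-1 epitope, at 152 ± 54.1 against 45.01 ± 10.4 CPM (log2 fold change -1.76, edgeR adjusted p = 0.00184), and the other 3 did not pass. Of 9 macrophage markers 5 were higher in mIDH1 and 0 lower, with sums of 5863 to 6765 CPM in wtIDH1 cells and 7654 to 15503 CPM in mIDH1. The highest sum was that of mIDH1 replicate 3 and stood well above the others. There Apoe was at 6836 CPM, against 2173 and 2690 CPM in mIDH1 replicates 1 and 2, and C1qa at 1601 CPM, against 744 and 646 CPM. Of 7 monocyte markers 1 was higher and 3 lower (6158 to 9578 against 4387 to 6206 CPM). The largest part of these sums was Fn1 (5236 ± 1697 against 3207 ± 912 CPM), which did not pass (edgeR adjusted p = 0.11). In mIDH1 replicate 3 Ccr2 was at 61.1 CPM (247 and 302 in replicates 1 and 2) and Plac8 at 25.2 CPM (111 and 112). F13a1 was highest there, at 1970 CPM (882 and 842). Of 9 neutrophil markers 3 were higher and 1 lower (326 to 399 against 419 to 433 CPM). Glioma and neural markers summed to 5.40 to 11.6 CPM and 12.3 to 22.9 CPM. Of the 5 tested 4 had a positive log2 fold change and 1 passed, Sox2 (0.0757 ± 0.0756 against 4.01 ± 3.38 CPM). Nes (2.91 ± 0.706 against 8.97 ± 0.598 CPM, edgeR adjusted p = 0.0918) and Pdgfra (0.216 ± 0.209 against 3.08 ± 2.15 CPM, 0.134) did not pass. In both, every mIDH1 library lay above every wtIDH1 library. Gfap was at 2.86 ± 2.48 against 0.668 ± 0.124 CPM, and Olig1, Olig2 and Aqp4, too low to be tested, had lower means in mIDH1. Of 10 T and NK cell markers 0 passed, but 9 had a positive log2 fold change, 5 of them with an edgeR unadjusted p under 0.05. Their sums were 183 to 414 CPM in wtIDH1 cells and 307 to 611 CPM in mIDH1. Of 8 immediate early genes 3 were lower. Over all genes tested 2.78% were higher and 5.39% lower. The share of these shifts in the values of the Zfp genes was not tested.

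The count rule reads raw counts, which depend on library depth. Members with at least 30 counts numbered 260, 261 and 247 in wtIDH1 replicates 1, 2 and 3 and 275, 266 and 275 in mIDH1. The smallest library, mIDH1 replicate 3 (19728204 counts), had 275, and the deeper wtIDH1 replicate 2 (27750515 counts) had 261. How far depth set these numbers was not tested. Of the members, 218 reached 30 counts in all 6 libraries, 31 in 5, 22 in 4 and 11 in 3. In 38 members all 3 mIDH1 libraries but fewer wtIDH1 libraries reached 30, and in 9 the reverse held. The 3 members with the lowest counts that still met the rule were Zfp773 (93, 47 and 25 counts in wtIDH1; 30, 3 and 10 in mIDH1), Zfp647 (9, 18 and 33; 39, 31 and 21) and Zfp167 (32, 91 and 19; 13, 75 and 34). Just outside it were Zfp934 (21, 29 and 15; 149, 102 and 0), Zfp948 (29, 13 and 33; 29, 26 and 37) and Zfp105 (141, 23 and 1; 27, 20 and 52). All 282 members were tested and all 14 that passed had at least 30 counts in every library. Of the 78 symbols below the rule, 30 were tested and 21 had 0 counts in every library.

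Members are named below with their CPM in wtIDH1 replicates 1, 2 and 3, then in mIDH1 replicates 1, 2 and 3, each scaled by TMM. Coordinates are those of mm10, a log2 fold change is mIDH1 relative to wtIDH1 and has its standard error, and means have their SD (n = 3 each).

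Zfp608 and Zfp609 are related proteins with 1 C2H2 pattern each, and Zfp609 is known to work with cohesin loading and the Integrator complex. Zfp608 (chromosome 18, 54888048 to 54992555) was at 162, 174 and 181 CPM in wtIDH1 cells and 72.0, 95.5 and 70.8 CPM in mIDH1. Every mIDH1 library lay below every wtIDH1 library. It fell from 172 ± 9.78 to 79.4 ± 13.9 CPM, a log2 fold change of -1.12 ± 0.18 (edgeR adjusted p = 0.00298). Zfp609 (chromosome 9, 65692391 to 65827564) was at 127, 149 and 138 CPM against 74.1, 91.3 and 82.1 CPM. The groups again did not overlap, and the log2 fold change was -0.74 ± 0.17 (edgeR adjusted p = 0.0197).

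The member with the second smallest p was Zfp710, an 11-finger gene by pattern count that was also among the 4 members with the most counts. Zfp710 (chromosome 7, 80024814 to 80094173) was at 233, 299 and 230.5 CPM in wtIDH1 cells and 133, 106 and 76.7 CPM in mIDH1. The highest mIDH1 library lay well below the lowest wtIDH1 library. It fell by 1.27 ± 0.21 on the log2 scale, from 254 ± 38.6 to 105 ± 28.1 CPM (edgeR adjusted p = 0.00387). Zfp800 (chromosome 6, 28239927 to 28398005) was at 65.6, 67.2 and 88.7 CPM against 38.6, 31.1 and 24.1 CPM. Its groups did not overlap, and the log2 fold change was -1.24 ± 0.24 (edgeR adjusted p = 0.00805).

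Zfp238 and Zfp295 are older symbols of Zbtb18 and Zbtb21, which carry a BTB domain, and Zbtb18 is a repressor needed for cortical neurons. Zfp238 (chromosome 1, 177442351 to 177450764) was at 145, 168 and 137 CPM in wtIDH1 cells and 81.5, 85.3 and 67.1 CPM in mIDH1. It fell in non-overlapping groups with a log2 fold change of -0.94 ± 0.18 (edgeR adjusted p = 0.00721). Zfp295 (chromosome 16, 97943357 to 97962622) was at 93.2, 83.8 and 89.1 CPM against 55.4, 59.9 and 35.2 CPM. Its wtIDH1 libraries were close together and all above the mIDH1 libraries, with a log2 fold change of -0.82 ± 0.22 (edgeR adjusted p = 0.0377). Among the 35 genes named Zbtb that were tested, 1 was higher and 4 were lower (14.3%). Over all genes tested 8.17% passed, 2.78% higher and 5.39% lower. The median log2 fold change was -0.14 in the Zbtb genes and 0.06 over all genes, and no test of the Zbtb genes as a set was made.

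Zfp335, needed in T cell and neural progenitor development, and Zfp263 were on the list of members with known roles. Zfp335 (chromosome 2, 164891882 to 164911757) was at 82.7, 86.8 and 72.8 CPM in wtIDH1 cells and 38.3, 41.3 and 49.8 CPM in mIDH1. It fell without overlap, with a log2 fold change of -0.91 ± 0.20 (edgeR adjusted p = 0.0154). Zfp263 (chromosome 16, 3744093 to 3750790) was at 96.2, 114 and 121 CPM against 65.2, 68.5 and 47.0 CPM. It also fell without overlap, with a log2 fold change of -0.87 ± 0.20 (edgeR adjusted p = 0.0192).

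Zfp513, whose human counterpart is linked to retinal degeneration, Zfp236, with 31 C2H2 patterns, and Zfp821, with 3, fell as well. Zfp513 (chromosome 5, 31198981 to 31202303) was at 41.6, 54.9 and 42.6 CPM in wtIDH1 cells and 23.8, 19.0 and 25.3 CPM in mIDH1. The groups stood apart, with a log2 fold change of -1.03 ± 0.25 (edgeR adjusted p = 0.0234). Zfp236 (chromosome 18, 82593593 to 82692883) was at 127, 145 and 155 CPM against 81.3, 102 and 77.9 CPM. Its groups did not overlap either, with a log2 fold change of -0.71 ± 0.18 (edgeR adjusted p = 0.0305). Zfp821 (chromosome 8, 109705546 to 109724932) was at 28.2, 17.6 and 31.9 CPM against 9.82, 10.2 and 7.09 CPM. It had the lowest level of the 14 and a log2 fold change of -1.52 ± 0.35 (edgeR adjusted p = 0.0195).

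Zfp248 was the only member past the threshold with a KRAB match, and its wtIDH1 libraries spread widely. A missing match in the others does not show that they lack the domain. Zfp248 (chromosome 6, 118427319 to 118455528) was at 105, 68.8 and 50.3 CPM in wtIDH1 cells and 39.0, 39.4 and 28.4 CPM in mIDH1. The groups did not overlap, and it fell from 74.8 ± 27.9 to 35.6 ± 6.22 CPM, a log2 fold change of -1.07 ± 0.27 (edgeR adjusted p = 0.0306).

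The members that rose lie on chromosome 5. Zfp644 encodes a partner of the histone H3 lysine methyltransferases G9a and GLP. Zfp644 (106616739 to 106697287) was at 31.0, 21.6 and 47.0 CPM in wtIDH1 cells and 91.2, 70.4 and 63.5 CPM in mIDH1. Every mIDH1 library lay above every wtIDH1 library, with a log2 fold change of 1.18 ± 0.28 (edgeR adjusted p = 0.0229). Zfp655 (145231715 to 145247302) was at 67.7, 55.8 and 71.2 CPM against 110.1, 132 and 96.4 CPM. Its groups did not overlap, with a log2 fold change of 0.80 ± 0.19 (edgeR adjusted p = 0.0234).

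**Figure D1:**
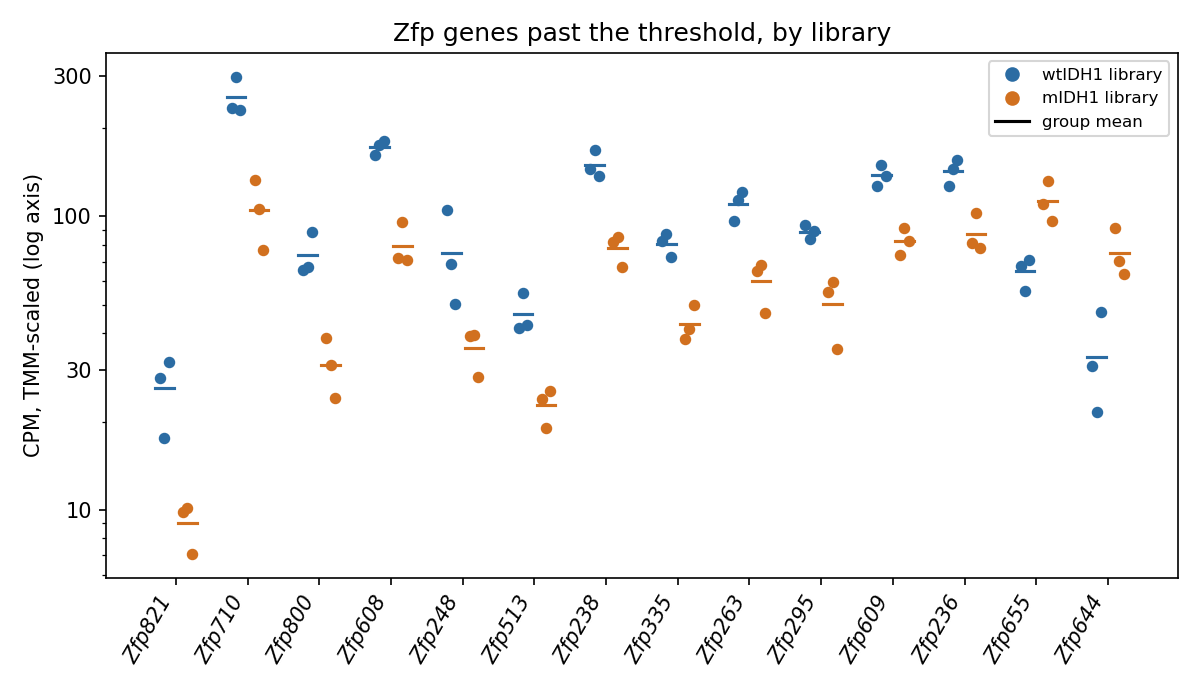
CPM (scaled by TMM, log axis) of the 14 members past the threshold, with 1 point per library and a line at the group mean. In each gene the 3 mIDH1 points lie on 1 side of the 3 wtIDH1 points, below in 12 genes and above in Zfp644 and Zfp655.

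All 14 also passed with DESeq2 and with limma voom, but 12 of these calls were lost in edgeR when some single library was left out. With each library left out in turn, Zfp608 (largest edgeR adjusted p = 0.0237) and Zfp710 (0.0322) passed every time. Without wtIDH1 replicate 2, 10 of the 14 missed the threshold, with edgeR adjusted p of 0.051 for Zfp238, 0.0882 for Zfp335 and Zfp263, 0.106 for Zfp609, 0.109 for Zfp644, 0.134 for Zfp513, 0.131 for Zfp655, 0.118 for Zfp236, 0.0956 for Zfp248 and 0.11 for Zfp295. Without wtIDH1 replicate 3, 8 missed it, with 0.0569 for Zfp800, 0.096 for Zfp263, 0.11 for Zfp821, 0.0814 for Zfp609, 0.0677 for Zfp513, 0.069 for Zfp655, 0.137 for Zfp236 and 0.126 for Zfp295. Without wtIDH1 replicate 1, 7 missed it, with 0.0506 for Zfp335, 0.0676 for Zfp821, 0.0767 for Zfp644, 0.065 for Zfp655, 0.0508 for Zfp236, 0.142 for Zfp248 and 0.11 for Zfp295. Without mIDH1 replicate 2, 6 missed it, with 0.0559 for Zfp335, 0.0581 for Zfp644, 0.0804 for Zfp513, 0.0951 for Zfp655, 0.0709 for Zfp248 and 0.0512 for Zfp295. Without mIDH1 replicate 3, Zfp236 (0.0592), Zfp248 (0.0544) and Zfp295 (0.0706) missed it, and without mIDH1 replicate 1, Zfp644 (0.0649) and Zfp236 (0.0645). Leaving out a library leaves 1 group with 2.

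**Figure D2:**
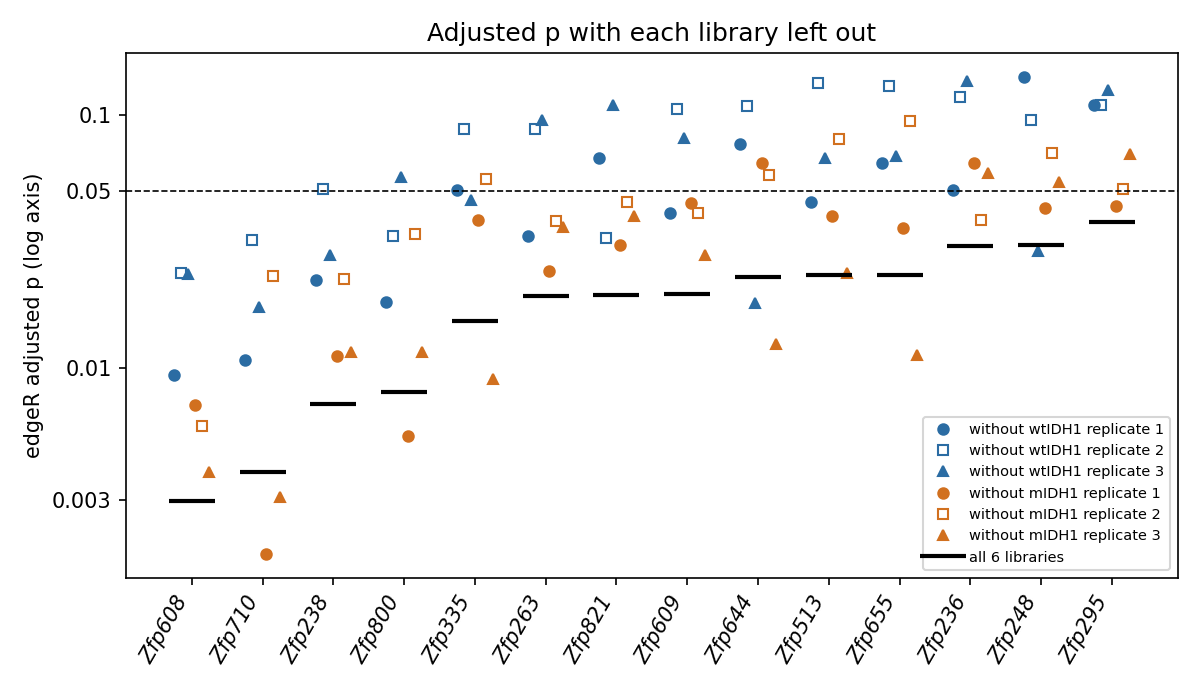
EdgeR adjusted p (log axis) of each of the 14 members with all libraries and with each library left out, beside the threshold of 0.05. The points of Zfp608 and Zfp710 stay under 0.05 in every setting, and those of the other 12 cross it in at least 1.

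None of the other 10 members with known roles passed in edgeR, though Zfp598 and Zfp622 had an unadjusted p under 0.05. Zfp598, the ubiquitin ligase that senses collided ribosomes, was at 55.1, 56.0 and 47.7 CPM in wtIDH1 cells and 25.6, 22.1 and 38.4 CPM in mIDH1. The groups did not overlap, and with a log2 fold change of -0.88 ± 0.25 it lay at the threshold (edgeR adjusted p = 0.0501). It passed with DESeq2 (0.0192), with limma voom (0.0252) and in edgeR without mIDH1 replicate 3 (0.0122). That replicate was the mIDH1 library nearest to the wtIDH1 values, so leaving it out widens the difference. Zfp622, which works in maturation of the large ribosomal subunit, was at 125, 135 and 145 CPM against 84.6, 119 and 65.4 CPM. These did not overlap either, with a log2 fold change of -0.59 ± 0.21 (edgeR adjusted p = 0.118). Zfp622 passed in edgeR without mIDH1 replicate 2 (0.0445), which again was the mIDH1 library nearest to the wtIDH1 values.

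Zfp384, which binds runs of A and T, was at 84.8 ± 8.29 CPM in wtIDH1 cells and 69.6 ± 5.03 CPM in mIDH1, without overlap (edgeR adjusted p = 0.391). Zfp143, a promoter factor with a role in chromatin loops, was at 34.3 ± 5.72 and 23.2 ± 6.65 CPM (edgeR adjusted p = 0.267). Zfp281, which binds GC-rich promoters, was at 138 ± 14.7 and 122 ± 15.9 CPM (edgeR adjusted p = 0.612). None of these differences passed the test. Zfp148, which also binds GC-rich DNA, was at 112 ± 10.5 and 111 ± 26.6 CPM, and Zfp91, a ubiquitin ligase of the non-canonical NF-kB pathway, at 262 ± 27.5 and 245 ± 38.8 CPM. Zfp207, a spindle assembly protein, was at 97.8 ± 10.5 and 114 ± 11.0 CPM. Zfp809, which silences murine retroviruses, was at 13.1 ± 1.15 and 13.1 ± 5.45 CPM, and Zfp445, a guardian of genomic imprints, at 58.1 ± 8.71 and 57.0 ± 12.5 CPM. The edgeR adjusted p of these 5 ran from 0.517 for Zfp207 to 0.994 for Zfp809.

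By counts the highest members were Zfp106, Zfp91, Zfp516 and Zfp710. Zfp106, an RNA-binding protein needed by motor neurons, was at 453, 431 and 463 CPM in wtIDH1 cells and 275, 335 and 402 CPM in mIDH1 (log2 fold change -0.41 ± 0.17, edgeR adjusted p = 0.179). Zfp516, an activator of brown fat genes, was at 242, 288 and 297 CPM against 215, 168 and 212 CPM (-0.48 ± 0.17, edgeR adjusted p = 0.115). In both, every mIDH1 library lay below every wtIDH1 library without the test being passed. Per kb of transcript the order changed: Zfp740 led with 79.4 CPM per kb, followed by Zfp207 with 67.7, Zfp91 with 45.8, Zfp106 with 43.3 and Zfp622 with 40.1.

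Across all members 40 had every mIDH1 library above every wtIDH1 library (14.2%, against 14.0% of all genes tested) and 33 had every one below (11.7%, against 14.9%). The fitted log2 fold change was positive in 166 members (58.9%, against 53.4%), with a median of 0.19 against 0.06 over all genes. The quartiles of the members were -0.27 and 0.67. The 218 members with 30 counts in all 6 libraries, which met the count rule in both groups, had a median of 0.11.

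The members were also split by KRAB match, which the rule did not use. Of 151 KRAB members 0 were higher and 1 lower in edgeR (0.662%; DESeq2 called 2 higher, Zfp599 and Zfp192, and 2 lower). At an unadjusted p under 0.05, 21 members were higher and 24 lower, against 10.1% and 12.1% of all genes (22.2% in all), and of the KRAB members 10 were higher and 5 lower. Of the 131 others 2 were higher and 11 lower (9.92%, near the 8.17% of all genes tested, of which 2.78% were higher and 5.39% lower). The median log2 fold change was 0.35 in KRAB members, 106 of them positive (70.2%), and -0.07 in the others, 60 of them positive (45.8%), though the latter median was 0.02 with library totals in place of TMM. Among members with 30 counts in all 6 libraries the medians were 0.32 over 99 KRAB members and -0.10 over 119 others. The 72 tested genes with a KRAB match that are not members had a median of 0.30, with 1 higher and 0 lower. These are descriptions, and no test of the difference between the classes was made.

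In each library the CPM of a class can also be summed. KRAB members summed to 1511, 1333 and 1402 CPM in wtIDH1 cells and 1570.0, 1703 and 1596 CPM in mIDH1. The lowest mIDH1 sum lay above the highest wtIDH1 sum. Members without a match summed to 5542, 5710.1 and 5802 CPM against 4732, 5095 and 4650.2 CPM. Here the mIDH1 libraries were all lower, and both orders held with library totals in place of TMM. The sums over all members were 7054, 7043 and 7204 CPM against 6302, 6798 and 6246 CPM. They did not overlap with TMM, but did with library totals, where wtIDH1 replicate 2 (6694 CPM) lay below mIDH1 replicate 2 (6935 CPM).

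**Figure D3:**
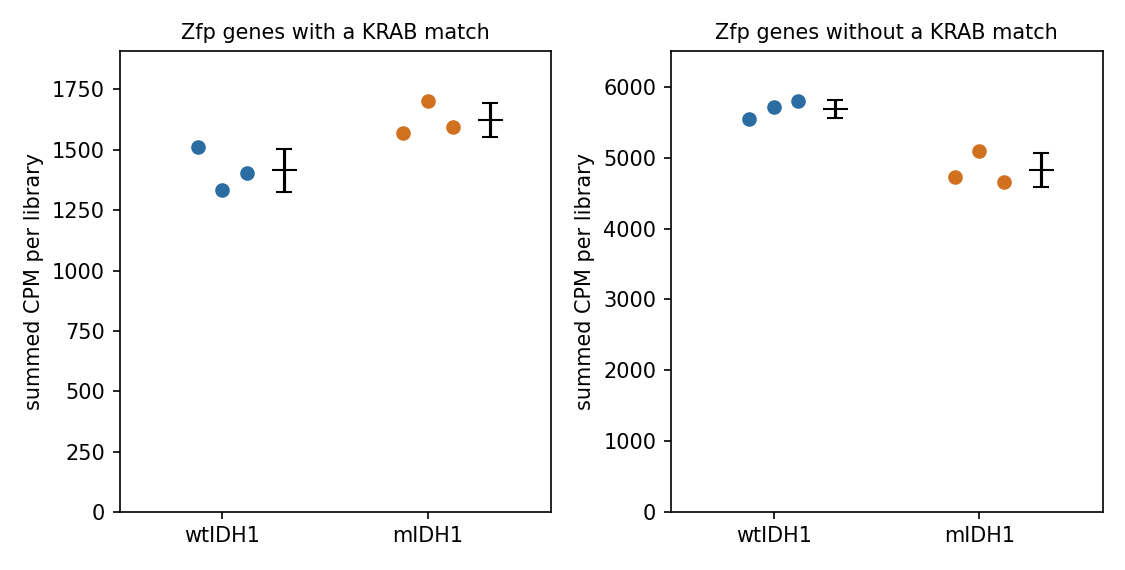
Summed CPM per library (axis from 0) of KRAB members and of members without a KRAB match, with 1 point per library beside the group mean and its SD. KRAB members sum to 1415 ± 90.0 CPM in wtIDH1 cells and 1623 ± 70.4 CPM in mIDH1 (SD, n = 3), and the others to 5685 ± 132 and 4826 ± 237 CPM.

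Level moved with class. KRAB members had a median of 5.42 CPM and the others 17.9 CPM, and their median standard errors were 0.64 and 0.34 on the log2 scale, so a change had to be larger to be detected in a typical KRAB member. Of 32 members without a match and over 50 CPM, 2 were higher and 9 lower (34.4%, against 17.6% of all genes over 50 CPM). Of 3 KRAB members at that level 1 was lower. Median log2 fold changes were lower at higher levels in both classes and in all genes. From under 5 CPM through 5 to 20 and 20 to 50 to over 50 CPM they were 0.43, 0.35, 0.23 and -0.03 in KRAB members (69, 65, 14 and 3 genes). They were 0.70, 0.09, -0.14 and -0.24 in the others (15, 53, 31 and 32 genes) and 0.28, 0.13, 0.05 and -0.07 in all genes tested.

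**Figure D4:**
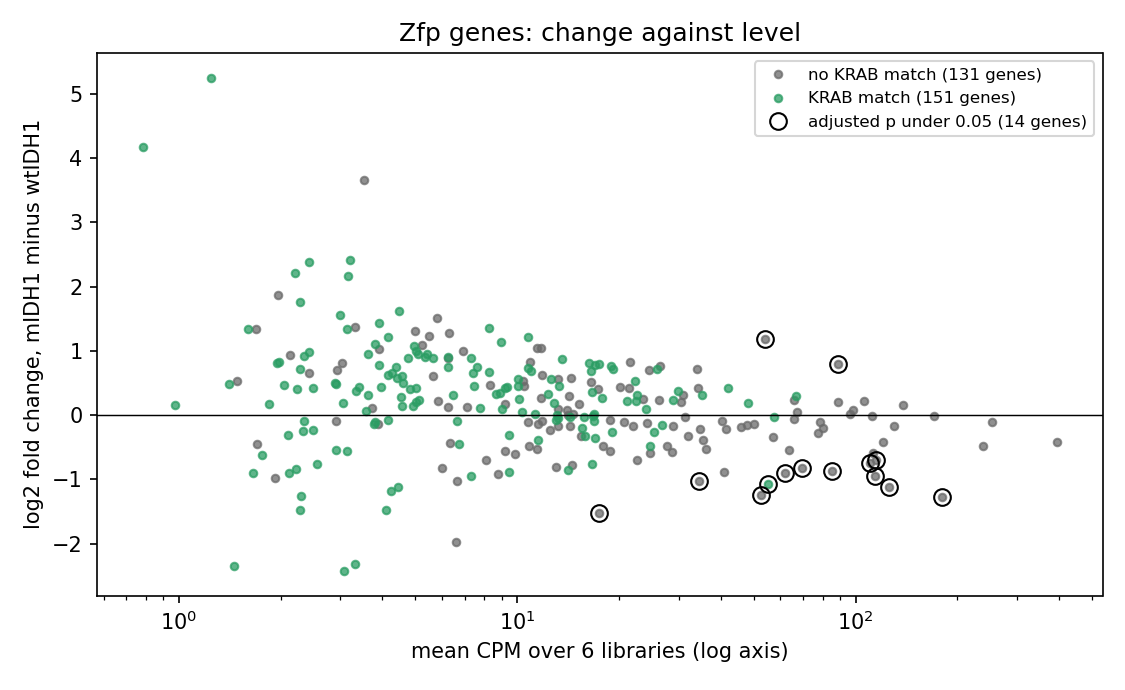
Fitted log2 fold change (mIDH1 minus wtIDH1) of each of the 282 members against its mean CPM (log axis), coloured by KRAB match, with members past the threshold marked. Points spread widely at low CPM, and the 14 members past the threshold all lie above the members' median of 10.8 CPM.

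Base composition moved with class too. The median GC content of the transcript was 42.2% in KRAB members, 51.0% in the others and 50.3% in all genes tested. Over all genes the median log2 fold change was 0.33 up to 40% GC, 0.20 from 40 to 45%, 0.11 from 45 to 50%, 0.02 from 50 to 55% and -0.14 above 55%. In the same bins KRAB members had 0.48, 0.45, -0.0049, 0.27 and -0.16 (44, 57, 26, 17 and 7 genes), and the others 0.21, 0.23, 0.13, -0.11 and -0.22 (11, 21, 30, 29 and 40 genes). After each library was corrected for GC content and transcript length the medians were 0.19 in KRAB members, -0.10 in the others and -0.02 in all genes. With that correction 0 members were higher and 10 lower in edgeR. Zfp644 (edgeR adjusted p = 0.0521), Zfp655 (0.0947), Zfp335 (0.0722) and Zfp513 (0.0536) no longer passed.

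**Figure D5:**
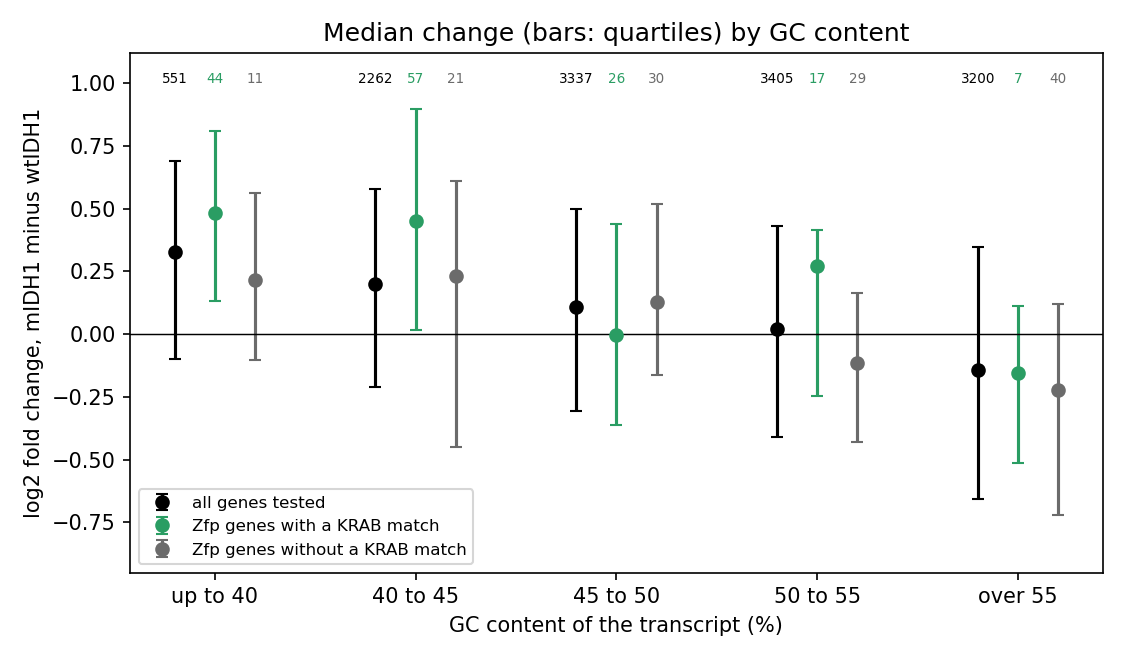
Median log2 fold change (mIDH1 minus wtIDH1; bars, quartiles) in 5 bins of transcript GC content, for KRAB members, other members and all genes tested. All genes descend from 0.33 to -0.14 as GC content rises, and the KRAB medians exceed those of all genes in 3 of the 5 bins.

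Among KRAB members the highest were Zfp871, Zfp445 and Zfp248, and Zfp871 and the 2 next named here were chosen after their values were seen. Zfp871 was at 59.7 ± 10.9 CPM in wtIDH1 cells and 73.2 ± 6.90 CPM in mIDH1 (edgeR adjusted p = 0.427). Zfp12 was at 33.4, 31.1 and 43.5 CPM against 45.7, 47.3 and 51.0 CPM, and Zfp26 at 26.0 ± 1.76 against 33.8 ± 4.18 CPM. In Zfp12 and Zfp26 all mIDH1 libraries lay above, and neither passed (edgeR adjusted p = 0.308 and 0.400).

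A few members, picked after their values were seen, met the count rule through their mIDH1 libraries alone, so their p-values test nothing independent of that choice and their counts are given as a description. Zfp462, a large chromatin factor without a KRAB match, had 24, 5 and 5 counts in wtIDH1 and 48, 425 and 106 in mIDH1. Most of its mIDH1 counts came from replicate 2, and wtIDH1 replicate 1 (1.11 CPM) was close to mIDH1 replicate 1 (1.38 CPM). The KRAB members Zfp599 (3, 1 and 0 counts against 113, 38 and 60) and Zfp563 (0, 1 and 4 against 42, 36 and 45) were near 0 in every wtIDH1 library. None of these 3 passed in edgeR, and Zfp119b met the rule in the same way. In all, DESeq2 called 6 members higher (Zfp192, Zfp438, Zfp462, Zfp599, Zfp644 and Zfp655) and 15 lower, adding Zfp7, Zfp598 and Zfp692 to the 12. Of the 6, Zfp462 and Zfp599 are among those just described and lend the count no weight. Over all genes it called 4.91% higher and 6.75% lower.

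Zfp genes lie in clusters, and the members lie on 20 chromosomes. Chromosome 7 holds 68 of them, with 1 lower, chromosome 17 holds 36 and chromosome 13 holds 27. None on chromosomes 17 and 13 passed in edgeR (at an unadjusted p under 0.05, 2 higher and 1 lower, and 3 higher and 0 lower). DESeq2 called 1 member on each. Their median log2 fold changes were 0.36 and 0.44, with 31 of 36 and 21 of 27 being KRAB members. Chromosome 5, with 17 members, held both that rose and 1 that fell. Neighbours in these clusters are close paralogs, and the sources used here do not say how reads shared between them were counted, which leaves the values of single KRAB members uncertain.

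The genes through which KRAB proteins act were taken from a list of corepressor and heterochromatin genes. Of 31 tested, 2 rose and 2 fell (12.9%, against 8.17% of all genes tested and 17.6% of those over 50 CPM). The list had a median level of 59.4 CPM and a median log2 fold change of 0.10, against 0.06 over all genes. Trim28, the corepressor that binds KRAB, was at 142, 128 and 135 CPM in wtIDH1 cells and 137, 128 and 151 CPM in mIDH1 (log2 fold change 0.04 ± 0.16, edgeR adjusted p = 0.926). Setdb1, its histone H3 lysine 9 methyltransferase, was at 47.4, 55.5 and 36.9 CPM against 57.4, 46.0 and 54.6 CPM (edgeR adjusted p = 0.711). In both genes the groups overlapped.

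Chd3, a remodeller of the NuRD complex, was at 127, 122 and 149 CPM in wtIDH1 cells and 53.8, 62.6 and 58.2 CPM in mIDH1. It fell without overlap (log2 fold change -1.19 ± 0.17, edgeR adjusted p = 0.00183). Dnmt3a, a de novo DNA methyltransferase, fell from 148, 132 and 116 CPM to 82.6, 68.3 and 63.4 CPM (-0.89 ± 0.18, edgeR adjusted p = 0.0113), but missed the threshold when wtIDH1 replicate 1 (0.0526) or 2 (0.06) or mIDH1 replicate 2 (0.0502) was left out. The histone chaperone Rbbp4 rose from 99.7, 111 and 103 CPM to 150.5, 168 and 151 CPM (0.58 ± 0.16, edgeR adjusted p = 0.0437). The remodeller Smarcad1, which binds Trim28, rose from 24.9, 26.7 and 25.5 CPM to 48.7, 48.0 and 38.9 CPM (0.82 ± 0.23, edgeR adjusted p = 0.0465). Leaving out wtIDH1 replicate 1, 2 and 3 and mIDH1 replicate 1 and 2 in turn, the edgeR adjusted p was 0.142, 0.129, 0.161, 0.055 and 0.131 for Rbbp4 and 0.118, 0.14, 0.144, 0.106 and 0.124 for Smarcad1.

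Zfp36, which the rule leaves out, and its relatives bind AU-rich elements of mRNA through CCCH fingers and are not C2H2 proteins. None of the 3 tested passed in edgeR (2 had an unadjusted p under 0.05), DESeq2 or limma voom. Zfp36 was at 703 ± 202 CPM in wtIDH1 cells and 477 ± 113 CPM in mIDH1 (edgeR adjusted p = 0.161), Zfp36l1 at 278 ± 22.6 and 206 ± 52.9 CPM (0.218) and Zfp36l2 at 778 ± 134 and 628 ± 54.0 CPM (0.332). Zfp36l3 had 0 counts in every library.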

How the data were processed

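RNA was measured in 6 libraries, 3 wtIDH1 and 3 mIDH1, grouped by the labels. Estimated counts per gene were deposited by the authors in 1 table, without scaling to library size. The submitters' processing notes name HTSeq, Cuffdiff 2.1.1, Cufflinks, Bowtie2 2.2.1, TopHat2 2.0.13, FastQC and build mm10. The order, settings and annotation used were not given in those sources. Polyadenylated RNA was selected and the kit did not mark strand, per the labels' protocols, so reads of overlapping antisense genes cannot be told apart. Between 1.31 and 1.61% of values per library were not whole (tolerance 1e-09) and were rounded.

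Genes were filtered with filterByExpr (minimum count 10, minimum total 15), scaled by TMM and compared with edgeR 4.0.16 (glmQLFit and glmQLFTest, group as the only term, two-sided, with 4 residual degrees of freedom; R 4.3.3). The Benjamini-Hochberg adjustment ran over every tested gene and the threshold was 0.05. Whether replicates are separate mice is not stated, so p-values reflect only how these libraries vary, possibly for technical reasons. DESeq2 1.42.0, limma 3.58.1 (voom), other scalings and filters, a replicate block and leaving out each library were alternatives. A correction for GC content and transcript length (loess, span 0.3) and other member rules were added after the data were seen.

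C2H2 patterns were counted in the translated longest coding transcript of each gene in GENCODE M21 (GRCm38), and KRAB domains were matched with a profile (HMMER 3.4, E-value limit 0.001) built from 114 windows of 42 residues. Of the members, 12 were matched by an older symbol. This step replaced planned RefSeq protein sequences, which were not used here. The members and lists were chosen with earlier results of these data known. Named are all members past the threshold, 12 with known roles, the 4 with most counts, the 3 on either side of the count rule, the Zfp36 family, and Trim28, Setdb1 and 4 further corepressor genes with the smallest p.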

Additional observations from a re-analysis of the deposited data

How the results depend on the processing

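The counts of 2 members higher and 12 lower did not change under RLE, library-total or upper-quartile scaling, and limma voom gave 2 and 13. Genes past the threshold over the whole table were 1058, and 1698 with DESeq2 and 585 with the replicate block. With library totals the whole-table split was 486 higher and 593 lower, against 360 and 698. Members higher numbered 5 with the stricter filter of 1 CPM (3 of them Zfp462, Zfp599 and Zfp563, which met the count rule through mIDH1 libraries alone), 6 with DESeq2 (Zfp462 and Zfp599 among them), 1 with the block and 0 with the GC and length correction, and members lower 7 with the block. The members' median log2 fold change of 0.185 was 0.261 with library totals, 0.0661 with the GC and length correction and 0.109 over members with 30 counts in all 6 libraries. Corepressor genes past the threshold were 4, and 2 with the block. The KRAB median minus that of other members was 0.417, and 0.294 with the GC and length correction. With 1 library left out, whole-table calls ranged from 334 to 1033, members higher from 0 to 3, members lower from 4 to 11, the members' median from 0.0984 to 0.201, corepressor calls from 1 to 5 and the KRAB difference from 0.339 to 0.379. The lowest whole-table count came without wtIDH1 replicate 2. The cause of these shifts was not tested.

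Same-numbered libraries did not deviate together (correlations of -0.0322, 0.0313 and -0.0511), and 2 of 6 libraries correlated best with their own number, so the numbers were not taken as pairs. With the replicate block, edgeR adjusted p was 0.0502 for Zfp263, 0.0574 for Zfp821, 0.0657 for Zfp513, 0.0692 for Zfp655, 0.0692 for Zfp236 and 0.0646 for Zfp295.

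Of the genes named with a test over all libraries, 6 changed sign, and none of these passed the test. The log2 fold change of Zfp148 was 0.0644 with library totals and 0.0493 with upper-quartile factors, that of Zfp445 0.0384 and 0.0283. That of Zfp809 was -0.0037 with the stricter filter, -0.0462 with limma voom, -0.0643 with the block and -0.131 with the GC and length correction, which put Zfp871 at -0.039. With 1 library left out the log2 fold changes ranged from -0.19 to 0.152 for Zfp148, -0.163 to 0.14 for Zfp445, -0.388 to 0.173 for Zfp809, -0.224 to 0.0045 for Zfp91 and -0.0253 to 0.0946 for Trim28. Depth limits the members under 5 CPM, where counts per library are few.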
